A study of Arabidopsis thaliana with 6 samples.

Results

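AT4G12470 (AZI1), AT4G12480 (EARLI1), AT4G12490, AT4G12500 and AT1G62510 are 5 Arabidopsis genes for hybrid proline-rich proteins of the lipid transfer type, and their transcripts were examined in rosettes after 48-h light submergence. The family was selected on the measured increase of its genes in this comparison, among 13286 genes with a named probe set on the array, so their levels and fold changes are a description and carry no test. Of the 5 genes, 3 had a probe set named by the array's annotation, namely AT4G12490, AT4G12500 and AT1G62510. AT4G12470 and AT4G12480 had no named probe set and were not analysed here.

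RNA levels were read from 6 ATH1 arrays, 1-colour oligonucleotide arrays on which several short probes per transcript form a probe set. The light submergence samples were rosettes of wild-type Col-0 plants, 4 weeks old at treatment, kept 5 to 10 cm under water for 48 h in the light (Light Sub, 3 arrays). The control samples were rosettes of untreated plants of the same ecotype and age, harvested at 0 h (3 arrays). No transgene or mutation was involved, both conditions were grown under a cycle of 16 h light and 8 h dark, and each replicate was collected from 3 plants. The submerged plants were 48 h older at harvest and received lower light than during growth, so submergence, light and time cannot be told apart. The tissue is given as leaves in the sample labels and as rosettes in the study's methods.

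Hybrid proline-rich proteins carry a signal peptide, a stretch rich in proline and a C-terminal domain with the conserved cysteines of lipid transfer proteins, and they are found at the cell wall, the plasma membrane and along the path of secretion. AZI1 is known for its part in systemic acquired resistance, in which a local infection primes distant leaves for defence, and it acts there with the small lipid transfer protein DIR1 and the mobile signal azelaic acid. EARLI1 was first described as a transcript raised by aluminium and was later linked to cold. The genes AT4G12470 to AT4G12500 lie in a cluster on chromosome 4, whereas AT1G62510 lies on chromosome 1. In the TAIR10.1 gene table another locus, AT4G12495, overlaps AT4G12490, and AT1G62515 overlaps AT1G62510, so a share of the signal from the overlapping locus was not tested.

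The authors had scaled the arrays to a common trimmed mean of the linear signal, and the median log2 signal was 6.64 to 6.97 on Light Sub arrays and 7.19 to 7.25 on control arrays, with 18 to 240 probe sets at 0 on an array. Within a condition the arrays correlated at 0.921 for Light Sub and at 0.909 to 0.924 for the controls. A probe set counted as above background when its log2 signal lay over the 40th percentile of that array. This level was 5.55 to 5.84 on Light Sub arrays and 6.17 to 6.39 on control arrays. Of 8 mesophyll markers 1 was measured, Rubisco activase (RCA), which was above background on all 6 arrays at 14.15, 13.66 and 14.30 after light submergence and 15.29, 15.23 and 14.90 in the control (limma adjusted p = 0.00457). Of 5 root markers, 3 were measured, with 0 of 9 Light Sub values and 1 of 9 control values above background. The summed log2 signal of the 3 root markers was 7.5 to 13.8 on Light Sub arrays and 12.6 to 17.0 on control arrays. These sums are mostly of values below background and none of the 3 passed the test, so no difference is read from them. Of 6 epidermis markers 1 was measured, ACR4 (listed as CR4), which was above background on 0 Light Sub arrays and 2 control arrays and fell at least 1.72-fold (limma adjusted p = 0.00189). The guard cell marker FAMA did not pass the test (1 of 4 measured, log2 fold change -0.56), and none of 5 vascular markers had a named probe set. The part of cell composition in the results that follow was not tested, and in such whole-rosette samples more cells of a type and more RNA per cell cannot be told apart.

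All 3 measured genes were higher after 48-h light submergence. Fold changes were estimated with limma on the log2 signals of all 22746 probe sets, and a probe set was called at an adjusted p under 0.05 with at least a 1.5-fold change. By that rule 3 of 3 measured genes were called higher, which their selection fixes, against 18.3% of all probe sets. Likewise the 3 Light Sub arrays lay above the 3 control arrays for 3 of 3 genes, against 23.1% of all probe sets.

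AT4G12500, a hybrid proline-rich gene of the chromosome 4 cluster, had the largest change of the 3. Its log2 signals were 15.08, 14.99 and 14.80 on the Light Sub arrays, against 6.89, 8.66 and 7.05 on the control arrays. The conditions did not overlap, with a gap of 6.13 between the lowest Light Sub array and the highest control array, and control replicate 2 was the highest control. On the linear scale the Light Sub signals were 34600, 32400 and 28400, and the control signals were 118, 405 and 133. The log2 fold change was 7.42 (standard error 0.38), which is 171-fold and the 77th largest increase among all probe sets.

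AT4G12490, a paralog in the same cluster of genes, had log2 signals of 15.17, 15.04 and 14.92 on the Light Sub arrays, against 7.16, 11.23 and 8.75 on the control arrays. The Light Sub arrays were close together, whereas the control arrays spread over 4.07 on the log2 scale with replicate 2 again highest. In linear signal, Light Sub gave 36900, 33700 and 31000 and the controls 143, 2410 and 430. The log2 fold change was 6.0 (standard error 0.76), or 63.9-fold. It was 5.05 without control replicate 1 and 7.09 without control replicate 2, so the size of this change depended on which control arrays were used.

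AT1G62510, the gene on chromosome 1, had log2 signals of 13.33, 13.57 and 13.74 on the Light Sub arrays, against 8.23, 7.49 and 7.18 on the control arrays. Here control replicate 1 was the highest control and replicate 2 lay between the others, and the conditions were separated by 5.10. On the linear scale the signals were 10300, 12200 and 13600 after light submergence, against 300, 180 and 145 in the control. The log2 fold change was 5.91 (standard error 0.24), or 60.1-fold.

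**Figure D1:**
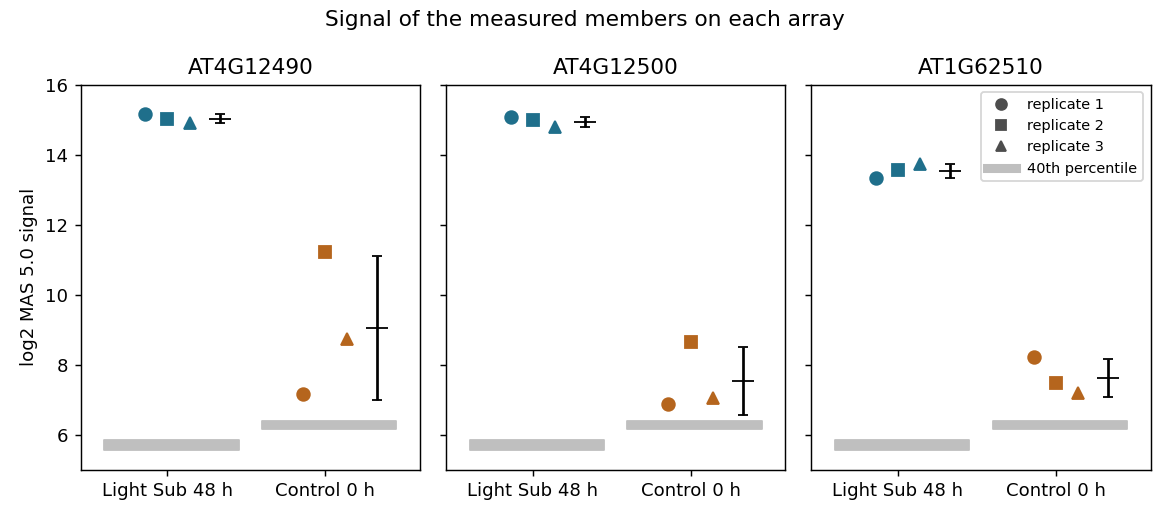
Log2 MAS 5.0 signal (y axis) of AT4G12490, AT4G12500 and AT1G62510 on each of the 3 Light Sub and 3 control arrays (x axis), with one marker shape per replicate number, and the mean with SD beside the points. The grey bands are the ranges of the 40th percentile over the arrays of a condition. The Light Sub arrays lie at 13.33 to 15.17 and the control arrays at 6.89 to 11.23, with the widest control spread for AT4G12490.

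The 3 genes differed in how their arrays spread. The SD over the Light Sub arrays was 0.13 for AT4G12490, 0.14 for AT4G12500 and 0.20 for AT1G62510, against 2.05, 0.98 and 0.54 over the control arrays (n = 3 each). Of 12674 probe sets above background on the 3 control arrays, 0 had a larger control SD than AT4G12490. For AT4G12500, 17 probe sets had a larger one, and for AT1G62510 342 did. Under light submergence the spread was small, as 10167 of 12578 probe sets above background on the 3 Light Sub arrays had a larger SD than AT4G12490. Those probe sets were not matched for brightness, and AT4G12490 was close to the highest signal, so the small spread is not read as particular to it.

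The Light Sub signals of the chromosome 4 genes were also near the top of the scale. AT4G12490 lay 0.11 to 0.22 below the highest log2 signal of its Light Sub array and AT4G12500 0.17 to 0.34 below it, whereas AT1G62510 lay 1.40 to 1.97 below it. Saturation of these probe sets was not tested, as the deposited values carry no flags for it.

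The deviations of single arrays from their condition mean differed between the chromosome 4 genes and AT1G62510. Control replicate 2 deviated by 2.19 for AT4G12490 and by 1.13 for AT4G12500, but by -0.14 for AT1G62510. Among the Light Sub arrays, replicate 1 was highest for AT4G12490 and AT4G12500, at 0.13 and 0.12, and lowest for AT1G62510, at -0.22. Over the 6 arrays the deviations of AT4G12490 and AT4G12500 had a correlation of 0.95, while those of AT1G62510 had correlations of -0.57 with AT4G12490 and -0.33 with AT4G12500. The 0.95 rests mainly on the control arrays, with control replicate 2 deviating most for both genes. These values describe 6 arrays that share their hybridisations and carry no test. Probe sequences were not used here, so hybridisation of one neighbour's transcript to the other's probe set was not tested.

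The fold changes kept the same order under most other settings. On the log2 scale, AT4G12500 minus AT1G62510 was 1.51 and AT4G12490 minus AT4G12500 was -1.42. AT4G12490 and AT1G62510 differed by 0.09, less than either standard error. An exception to that order came without light submergence replicate 1 and without control replicate 1, where AT1G62510 had the larger change of these 2, at 6.02 against 5.93 and at 6.21 against 5.05. After quantile normalization the log2 fold changes were 7.73 for AT4G12500, 6.22 for AT4G12490 and 6.19 for AT1G62510, and with 32 added to the linear signal they were 7.17, 5.86 and 5.69. The control signals were above background on 3 of 3 arrays for each gene, so the folds are not bounds for lack of control signal. With background at the 50th percentile the control arrays above it were 2 for AT4G12490, 1 for AT4G12500 and 2 for AT1G62510.

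**Figure D2:**
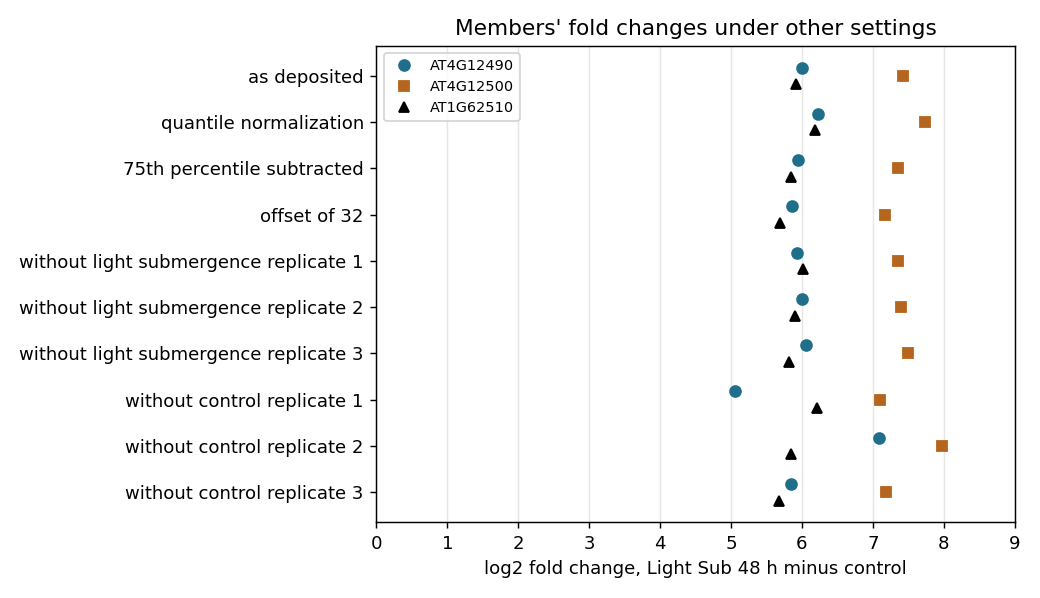
Log2 fold change (x axis, Light Sub minus control) of the 3 measured genes as deposited, under other scalings and with each array left out in turn (y axis). The values of AT4G12490 range from 5.05 without control replicate 1 to 7.09 without control replicate 2, and those of AT4G12500 from 7.10 to 7.98.

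The loci on both sides of the genes were examined because the genes were not chosen by their position. On chromosome 4, of 14 neighbouring loci up to 6 places from a member, 2 had a probe set of their own, AT4G12530 and AT4G12540. Neither passed the test, and neither was above background on any array, with log2 fold changes of -1.56 (limma adjusted p = 0.391) and -0.90 (limma adjusted p = 0.496). AT4G12530 is itself a hybrid proline-rich gene, 3 places beyond AT4G12500. It had log2 signals of 5.63, 0.14 and 2.56 after light submergence and 5.09, 3.21 and 4.71 in the control.

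On chromosome 1, 7 of 12 neighbouring loci were measured. AT1G62480, the third locus before AT1G62510, rose 3.62-fold, with log2 signals of 13.22, 13.30 and 13.38 after light submergence against 11.95, 10.68 and 11.69 in the control (limma adjusted p = 0.000345). AT1G62520, the second locus after AT1G62510, fell at least 1.99-fold (limma adjusted p = 0.00354), being above background on the 3 control arrays and on 0 Light Sub arrays. Of the 7, 1 was thus called higher and 1 lower, where 18.3% of all probe sets were called higher and 24.3% lower. AT1G62500, a hybrid proline-rich gene directly before AT1G62510, was not above background on any array and had a log2 fold change of 0.33 (limma adjusted p = 0.813). The other 4, AT1G62450, AT1G62460, AT1G62490 and AT1G62530, did not pass the test either, at log2 fold changes of -0.32, 0.52, 1.03 and -1.81. AT1G62450 was 0.19 after quantile normalization and 0.26 without control replicate 2.

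**Figure D3:**
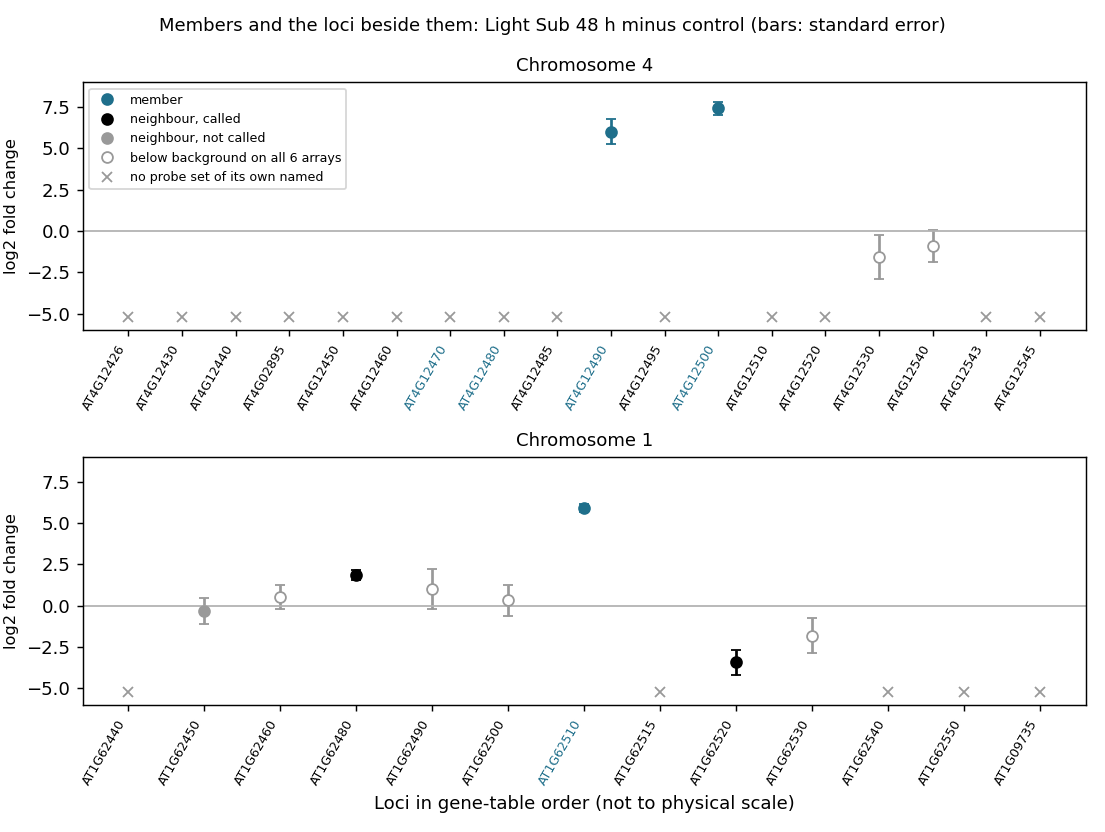
Log2 fold change (y axis, Light Sub minus control, bars are standard errors) of the members and of up to 6 loci on either side, in the order of the gene table (x axis, not to physical scale), on chromosome 4 and chromosome 1. Crosses mark loci with no probe set of their own. The members lie between 5.91 and 7.42, and the called neighbours at 1.86 (AT1G62480) and -3.42 (AT1G62520).

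The other hybrid proline-rich genes included calls in both directions after 48-h light submergence. Of 27 genes in a list made from general knowledge, 10 were measured by a probe set of their own, 5 only by shared probe sets that are not counted, and 12 had none named. The test was passed by 2 genes that rose and 1 that fell, whereas 7 did not pass it, and 5 of the 10 were above background on no array. The shares of all 22746 probe sets called were 18.3% higher and 24.3% lower. The median log2 fold change of the 10 was 0.62, against -0.26 for all probe sets. It fell between AT1G62500 (0.33) and AT1G12100 (0.91), both above background on no array, so no shift of the list is read from it.

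AT4G22470, on chromosome 4 outside the cluster of the members, had a change close in size to theirs. Its log2 signals were 12.53, 12.05 and 12.44 on the Light Sub arrays and 5.83, 5.86 and 5.46 on the control arrays. All 3 control values were below background, so the increase was at least 65.6-fold (limma adjusted p = 1.55e-08), with a fitted log2 fold change of 6.62 and a standard error of 0.19 (5.94 with 32 added to the linear signal). AT4G22490, a locus of the same chromosome region, rose 2.69-fold, with log2 signals of 7.69, 6.98 and 7.84 against 5.57, 6.61 and 6.04 in the control, of which 1 was above background (limma adjusted p = 0.0137). That call was lost without light submergence replicate 1 (limma adjusted p = 0.0543) and without replicate 3 (limma adjusted p = 0.0552).

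AT2G10940, another hybrid proline-rich gene, moved in the opposite direction. It had log2 signals of 3.29, 5.48 and 6.73 on the Light Sub arrays, against 13.03, 12.49 and 12.72 on the control arrays, and was above background on 1 Light Sub array. The conditions did not overlap, and AT2G10940 fell by 7.58 on the log2 scale, with a standard error of 0.66 (limma adjusted p = 7.85e-06). With each array left out in turn its log2 fold change was between -8.36 and -6.64, and with 32 added to the linear signal it was -6.5. Of its Light Sub values 2 were below background, so the size of the fall is uncertain. AT2G45180 was bright on every array, at 14.19, 14.03 and 14.32 after light submergence and 14.64, 14.37 and 14.32 in the control. Its log2 fold change was -0.26 (limma adjusted p = 0.363), the median of all probe sets, and 0.13 after quantile normalization, so no direction is given for it. AT4G22460 was above background on 1 Light Sub array and 0 control arrays and did not pass the test (log2 fold change 1.18, limma adjusted p = 0.329). AT1G12100, AT3G22570 and AT4G22610, like AT1G62500 and AT4G12530, were above background on no array.

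**Figure D4:**
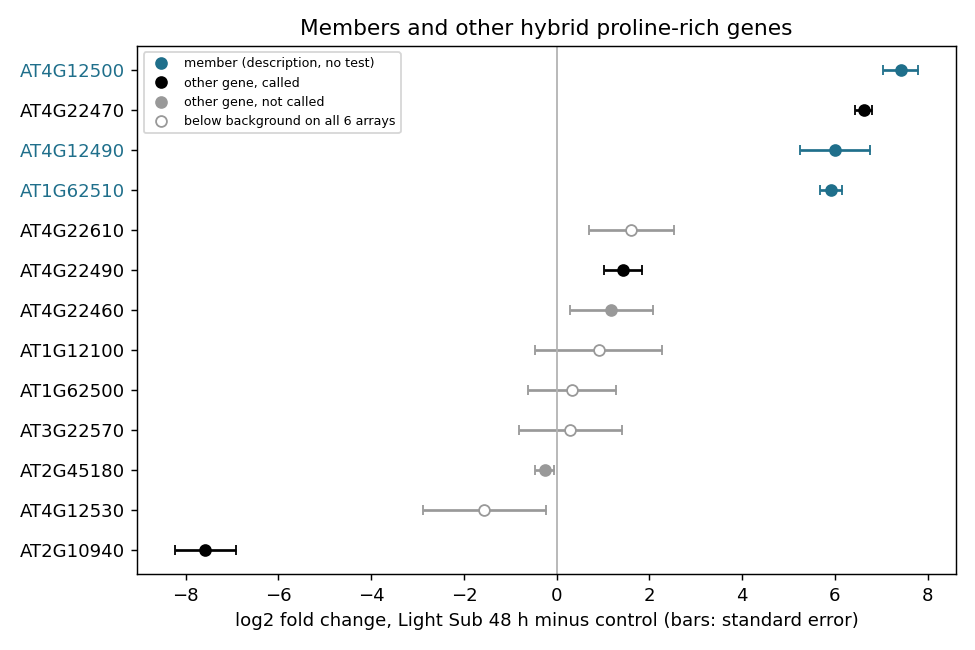
Log2 fold change (x axis, Light Sub minus control) with its standard error for the 3 measured members and 10 other hybrid proline-rich genes (y axis). Members are a description without a test, filled black points passed the test, and open points were above background on no array. AT4G22470, at 6.62, lies among the members, and AT2G10940, at -7.58, lies at the other end.

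Other lipid transfer protein genes encode the domain with conserved cysteines without the proline-rich stretch. Of 17 genes for secreted lipid transfer proteins, 5 were measured, of which 3 were above background on no array. The median log2 fold change of the 5 was -0.29, against -0.26 for all probe sets. It is the value of AT5G01870, a gene above background on no array, so no shift of the list is read from it. Of the 5, 0 were called higher and 1 lower, and 4 did not pass the test. Over all probe sets, 18.3% were called higher and 24.3% lower. The 1 gene that fell was AT5G48490, a paralog of DIR1, with log2 signals of 6.18, 2.47 and 4.51 on the Light Sub arrays and 7.28, 6.50 and 6.81 on the control arrays (log2 fold change -2.47, limma adjusted p = 0.0364). AT5G48490 was above background on 1 Light Sub array and 3 control arrays, so the size of its fall is uncertain. Its call was lost after quantile normalization (limma adjusted p = 0.0798) and when any array other than light submergence replicate 1 was left out, with limma adjusted p between 0.0579 and 0.118. The log2 fold change was -1.51 without light submergence replicate 2 and -3.37 without replicate 1, and -1.31 with 32 added to the linear signal. DIR1 itself, AT5G48485, had no named probe set.

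Of 23 genes for lipid transfer proteins with a lipid anchor to the plasma membrane, 10 were measured. Of these, 1 rose and 3 fell, and the other 6 were not called. Over all probe sets, 18.3% were called higher and 24.3% lower. The median log2 fold change of the 10 was -0.59, against -0.26 for all probe sets, and 5 were above background on no array. This median fell between AT1G36150 (-1.07) and AT3G58550 (-0.10), which are among those 5, so no shift of the list is read from it. AT1G62790 rose 1.98-fold, with log2 signals of 10.43, 10.02 and 9.97 against 9.09, 9.07 and 9.29 (limma adjusted p = 0.000689). AT2G27130 and AT2G44300 fell, with log2 fold changes of -2.59 (limma adjusted p = 0.000465) and -1.80 (limma adjusted p = 0.000431). The other call, AT2G48130, was above background on no array and its call (limma adjusted p = 0.0449) was lost in 5 of 6 fits that left out an array. AT3G22600 was named only through the upregulated part of the study's list of differentially expressed genes. It had therefore been chosen for its increase and is not counted. Its log2 signals were 12.23, 12.96 and 11.66 after light submergence and 2.92, 6.0 and 5.45 in the control, a rise of at least 63.0-fold.

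AZI1 acts in systemic acquired resistance, and genes of that response were listed in the same way. Of 23 genes, 2 were measured by a probe set named by the annotation, AT5G48490 and SARD4 (AT5G52810), a reductase of pipecolic acid synthesis. SARD4 rose 5.58-fold, with log2 signals of 11.25, 11.05 and 10.52 on the Light Sub arrays and 8.56, 8.05 and 8.77 on the control arrays (limma adjusted p = 1.32e-05). Another 9 were named only through the upregulated part of the study's list and support no direction. Of these, the 4 with the largest increases are given, and MPK6, while the smallest increase among the 9 was 3.43-fold. ALD1, the aminotransferase of pipecolic acid synthesis, had log2 signals of 11.27, 12.45 and 10.72 against 3.20, 4.18 and 3.50 in the control. PR1, a secreted protein used as a marker of salicylic acid responses, had 13.52, 14.10 and 13.42 after light submergence and 6.84, 6.85 and 6.87 in the control. FMO1, which hydroxylates pipecolic acid, was at least 6.18-fold higher and EDS16, an isochorismate synthase of salicylic acid synthesis, was 25.3-fold higher. MPK6, a mitogen-activated protein kinase of defence signalling, had 11.29, 11.17 and 11.05 after light submergence and 9.38, 9.24 and 9.24 in the control. MPK3, known to phosphorylate AZI1, had no named probe set.

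The genes whose profile over the 6 arrays was most like the mean of the 3 measured members were NRT2.5 (AT1G12940, a nitrate transporter), AT4G19370, AT1G15350, AT2G27660 and AT1G51620. Their Pearson correlations with that mean were 0.9993, 0.9993, 0.9992, 0.9989 and 0.9989, over 6 arrays in 2 conditions. Of 13433 single-gene probe sets, 106 had a correlation of at least 0.99. NRT2.5 had log2 signals of 11.98, 11.65 and 11.85 on the Light Sub arrays and 3.23, 5.62 and 3.61 on the control arrays, where it was above background on 0 of 3. AT2G27660 had 12.20, 11.92 and 11.67 after light submergence and 5.11, 6.69 and 5.25 in the control, above background on 1 of 3. Control replicate 2 was highest for both genes, which their choice by likeness to the members favours. A correlation takes no account of size, and AT1G15350 had a log2 fold change of only 1.75, with log2 signals of 9.83, 9.75 and 9.79 after light submergence and 7.91, 8.33 and 7.89 in the control.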

How the data were processed

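Labelled RNA was hybridised to ATH1 arrays by the authors, who computed MAS 5.0 signals (program version not stated). The deposited table holds log2 signals for 22746 probe sets and 6 arrays, scaled by the authors to a common trimmed mean and without detection calls. With 3 arrays per condition, their number limits the precision, and the samples are described as biological replicates. The labels name Trizol for RNA extraction where the study's methods name an RNeasy kit. Groups came from the sample labels. Gene names came from the platform annotation (13513 probe sets with 1 gene, of which 13436 matched a TAIR10.1 locus, 503 with several and 8730 with none). For 957 more, names came from the upregulated part of the study's list of differentially expressed genes. Only that part of the list was used here, and the 957 were kept out of the counts for gene lists and neighbours. The shares over all probe sets include them, and some are among the genes refitted under other settings. For genes with more than 1 probe set the brightest was used.

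The comparison was fitted with limma (version 3.58.1, R 4.3.3), using a variance trend, no block, and Benjamini-Hochberg adjustment over all probe sets, and the script was tested on simulated data. Members and gene lists were chosen with earlier results of these data known. Named genes were the members, all measured hybrid proline-rich genes, and up to 4 called genes with the largest change per other list and direction. Also named were DIR1 and its paralog, MPK3, MPK6, neighbours up to 6 loci away and the 5 genes most similar in profile. The settings varied were the scaling (quantile normalization, or each array minus its 75th percentile), an offset of 32 on the linear signal, a filter on dim probe sets, no variance trend, a replicate block, background at the 30th or 50th percentile, and each array left out. The sample labels state no pairing by replicate number. Deviations of same-numbered arrays correlated at 0.027, -0.012 and 0.059, so no pairing was seen in the signals. A planned comparison of protein and promoter sequences was not run, as no sequence table was used here. Figures were made in matplotlib 3.10.9 (Python 3.11.15).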

Additional observations from a re-analysis of the deposited data

How the results depend on the processing

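The increases of AT4G12490, AT4G12500 and AT1G62510 kept their direction under every alternative tried, with each array left out giving log2 fold changes of 5.05 to 7.09, 7.10 to 7.98 and 5.68 to 6.21. Leaving out an array could not reverse a direction, as every Light Sub array lay above every control array for each gene. Only the sizes are therefore informative here. Over all probe sets, 3887 to 4559 were called higher and 4778 to 5820 lower. The replicate block gave 4051 higher and 5288 lower and took the call from AT2G48130, leaving 2 lower among the anchored lipid transfer proteins, and it moved no other list count. No pairing by replicate number was seen in the signals. Besides the members, 42 genes named here or among the root markers were refitted, of which 26 were called, and 22 of these were called in the same direction under every alternative that tested them. The exceptions were AT4G22490, AT5G48490, AT2G48130 and AT1G59930. Of the 22, AT3G22600, ALD1, FMO1, MPK6, EDS16 and PR1 were named only through the upregulated part of the study's list. The 5 genes most similar in profile are also among the 22 and had been chosen for likeness to the raised members. For both groups the direction was fixed by their choice. The median of all probe sets was -0.26 as deposited, 0.02 after quantile normalization and -0.32 after subtraction of the 75th percentile.

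Leaving out 1 array gave 1 to 2 hybrid proline-rich genes called higher, and 0 to 1 called lower among secreted lipid transfer protein genes and among systemic acquired resistance genes. Both of those last counts rest on AT5G48490, and were 0 when arrays were quantile normalized and 0 when no variance trend was fitted. In the list of anchored lipid transfer proteins, 2 genes were called higher after quantile normalization and 2 with the offset of 32. By Spearman correlation, 2203 single-gene probe sets tied with or exceeded the lowest of the 5 genes most similar in profile. Correlating deviations from the condition means, an alternative chosen after seeing the data, shared 0 of these 5. Among genes that did not pass the test, the sign changed for AT1G12100 (-0.27 to 2.09), AT1G62500 (-0.15 to 0.96), AT3G22570 (-0.40 to 1.09) and AT1G62450 (-1.21 to 0.26) over the arrays left out, and after quantile normalization for AT2G45180 (0.13) and AT1G62450 (0.19). The cause of these differences was not tested.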

Other observations

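Control replicate 2 stood apart for the chromosome 4 members on a small set of probe sets. With a gap of at least 1.5 on the log2 scale over both other controls, a limit chosen after the values had been seen, 11 of 12674 probe sets above background on the 3 control arrays were highest on control replicate 2, against 0 for control replicate 1 and 1 for control replicate 3. AT4G12490, with a gap of 2.49, and AT4G12500, with a gap of 1.61, were 2 of the 11. Of the 11, 3 were called higher after light submergence and 7 lower, where 23.8% of the 12674 were called higher and 38.7% lower. Choosing the 11 for a high control value favours calls of lower. The 3 called higher include AT4G12490 and AT4G12500, which were selected for their increase. No conclusion about the 11 is therefore drawn from these shares. AT3G28220 and AT1G59930 were the other single-gene probe sets of the 11, and both were called lower, although AT1G59930 lost its call without control replicate 2 (limma adjusted p = 0.138) and under 4 other alternatives. AT3G28220 had log2 signals of 4.19, 1.69 and 4.32 on the Light Sub arrays and 7.31, 9.12 and 7.30 on the control arrays. The remaining 7 probe sets had no named gene of their own.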
